A study of Homo sapiens with 24 samples.

Results

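The 10 genes described here encode the enzymes that cut proteins into peptides for display on MHC class I and that trim those peptides to length. They were taken by name from the 55773 gene names of the count table: the immunoproteasome subunits PSMB8, PSMB9 and PSMB10, the constitutive subunits PSMB5, PSMB6 and PSMB7, the proteasome activator subunits PSME1 and PSME2, and the aminopeptidases ERAP1 and ERAP2. All 10 were found and all 10 passed the filter on low counts. Their RNA was measured by RNA-seq in U937, a human myelomonocytic suspension line, in 24 libraries that make up 8 groups of 3. One arm consisted of cells given DMSO, 2 µM UNC0638 or 4 µM UNC0638, where UNC0638 is a small molecule that blocks the histone H3 lysine 9 methyltransferases G9a and GLP. The other arm consisted of cells carrying G9a hairpin 2 or 3, SUV39H1 hairpin 2 or 4, or a scrambled hairpin. The UNC0638 cells were collected at 3 days, and the lentiviral G9a and SUV39H1 hairpin cells had 3 days of puromycin selection. Neither the time in DMSO nor a selection of the scrambled cells is stated, so each arm was set against its own control. The doses share their DMSO libraries and all hairpins share the scrambled libraries. The labels do not say that replicates were separate cultures, and p-values therefore measure the spread between libraries, which may be technical.

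The proteasome is a barrel-shaped protease in which a few beta subunits do the cutting. In cells exposed to interferon, and constitutively in many blood cells, PSMB8, PSMB9 and PSMB10 take the places of PSMB5, PSMB6 and PSMB7, and the resulting immunoproteasome makes more peptides with the kind of end that fits MHC class I. PSME1 and PSME2 form the PA28 ring that caps the barrel and opens it. ERAP1 and ERAP2 sit in the endoplasmic reticulum and shorten peptides at their front end before they are loaded.

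The libraries held 31545854 to 53803704 counts each. Levels are given as CPM, a gene's count scaled to the total of its library, and changes as log2 differences from one edgeR quasi-likelihood fit over all 24 libraries, with TMM scaling, standard errors and p-values adjusted by Benjamini-Hochberg over the 20147 genes tested. A gene was called when its adjusted p was under 0.05. EHMT2, which encodes G9a, averaged 72.6 ± 2.70 and 71.6 ± 3.51 CPM with G9a hairpins 2 and 3, against 139.6 ± 8.75 CPM with the scrambled hairpin (SD, n = 3). It was lower by 0.97 ± 0.05 (SE) in log2 with the G9a hairpins, and SUV39H1 was lower by 1.55 ± 0.05 with its own hairpins. With the SUV39H1 hairpins, taken as the mean of both, SUV39H2, EHMT1 and EHMT2 were lower too, by 0.92, 0.56 and 0.29. The hairpins were not alike in this. SUV39H2 averaged 13.9 CPM with hairpin 2 and 21.8 CPM with hairpin 4, against 30.5 CPM with the scrambled hairpin. EHMT1 averaged 55.9 and 64.5 CPM, against 82.1 CPM. EHMT2 averaged 112 and 136 CPM, and its hairpin 4 libraries overlapped the scrambled ones. Of 10 markers of the myelomonocytic lineage, 9 averaged over 1 CPM, and MPO, the lowest, ranged from 0.526 to 1.95 CPM. Summed T cell, erythroid, epithelial, fibroblast and endothelial markers were each at most 0.849 CPM in every library. The endothelial sum covers CDH5 and VWF alone, since PECAM1 was not found among the gene names. Of the B cell markers MS4A1 was at most 0.0239 CPM, while CD79A reached 25.6 CPM.

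Interferon signals reach genes of this kind through short DNA motifs near their starts. Promoter windows from 250 bases before to 50 bases after an annotated start were available for 8 of the 10 genes (RefSeq, GRCh38.p14), 12 windows in all. The core of the interferon-stimulated response element, written GAAANNGAA and searched on both strands, was found in 6 of these 12 windows, each of another gene, and in 8.11% of the 35116 windows of the table. The 6 matches are shown because the genes that carry them differ widely in their response below. Each is given with 30 bases on either side, 5′ to 3′ on the strand of its gene, with the match in capitals.
PSMB8, chr6:32844012-32844080, minus strand: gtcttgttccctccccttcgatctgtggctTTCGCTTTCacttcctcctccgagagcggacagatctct
PSMB10, chr16:67936833-67936901, minus strand: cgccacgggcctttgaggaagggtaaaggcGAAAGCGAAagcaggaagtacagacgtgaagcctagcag
PSME1, chr14:24136170-24136238, plus strand: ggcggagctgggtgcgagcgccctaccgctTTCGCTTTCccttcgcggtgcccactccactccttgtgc
PSME2, chr14:24146600-24146668, minus strand: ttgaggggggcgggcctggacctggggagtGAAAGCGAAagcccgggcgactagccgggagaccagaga
ERAP1, chr5:96807904-96807972, minus strand: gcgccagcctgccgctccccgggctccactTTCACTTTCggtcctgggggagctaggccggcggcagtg
ERAP2, chr5:96876440-96876508, plus strand: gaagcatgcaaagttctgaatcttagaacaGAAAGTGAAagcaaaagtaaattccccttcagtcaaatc
PSMB10, PSME2 and ERAP2 read GAAA on the gene's own strand, and PSMB8, PSME1 and ERAP1 hold the motif on the opposite strand. The PSMB9 window holds no such match, and it overlaps by 13 bases the window of TAP1, the peptide transporter gene that runs the other way.
PSMB9, chr6:32853942-32854241, plus strand, all 300 bases with no part marked: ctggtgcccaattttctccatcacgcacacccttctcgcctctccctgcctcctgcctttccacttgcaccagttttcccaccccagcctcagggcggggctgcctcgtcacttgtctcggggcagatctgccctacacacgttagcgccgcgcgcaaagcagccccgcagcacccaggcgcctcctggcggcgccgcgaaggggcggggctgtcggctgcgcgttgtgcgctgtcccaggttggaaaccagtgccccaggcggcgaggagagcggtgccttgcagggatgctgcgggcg
The STAT motif TTCNNNGAA was found in 2 of the 12 windows, those of PSMB8 and PSMB5, and in 7.66% of all windows. The antioxidant response motif TGANNNNGC was found in 9 of the 12 windows but also in 41.8% of all windows, and in PSMB5 it overlaps a STAT match. A match is a run of letters and not evidence that a factor binds there.

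**Figure D1:**
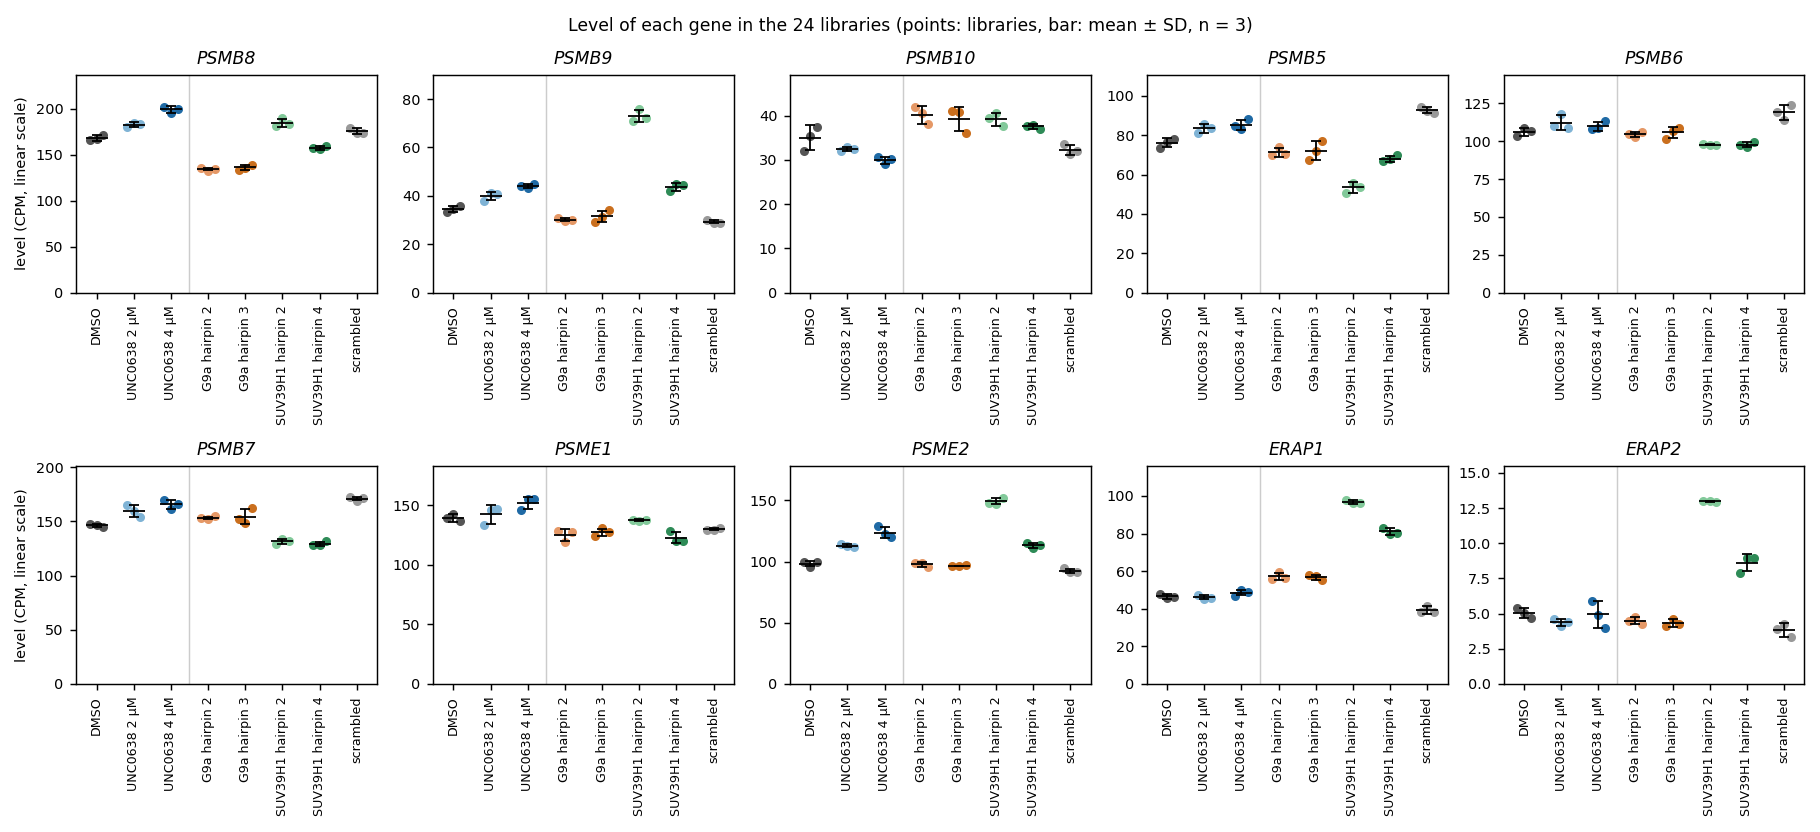
Level of each gene in CPM (linear axis from 0) in the 24 libraries, with points for libraries and bars for the group mean ± SD (n = 3). PSMB9, PSME2, ERAP1 and ERAP2 are highest with SUV39H1 hairpin 2, where ERAP2 averages 12.98 CPM, while PSMB5, PSMB6 and PSMB7 are highest with the scrambled hairpin.

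At 4 µM UNC0638, 6 of the 10 genes were higher and 1 was lower than in DMSO, where 10.2% of all genes tested were higher and 9.73% lower. The median change of the 10 genes was 0.15 in log2, against -0.01 for all genes tested. PSMB9, PSME2 and PSMB8 changed most, and PSMB10 was the gene that fell. At 2 µM PSMB8, PSMB9, PSMB7 and PSME2 were higher, 4 in all, and 0 were lower, where 3.83% of all genes were higher and 3.34% lower. With the replicate number as a block, PSMB5 was called too and the count was 5. That 0 came from edgeR and was also 0 at an unadjusted p under 0.05 and with DESeq2. With the G9a hairpins, taken as the mean of both, 2 genes were higher and 4 lower, against 25.0% and 24.9% of all genes. With the SUV39H1 hairpins all 10 were called, 5 higher and 5 lower, against 35.1% and 32.7% of all genes. ERAP1, ERAP2 and PSMB9 led those that were higher, and PSMB5, PSMB7 and PSMB6 those that were lower. The median change of the 10 genes was 0.00 with the G9a hairpins and 0.02 with the SUV39H1 hairpins, against 0.01 and 0.03 for all genes tested.

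Limits of these counts concern mostly the inhibitor arm. Fitted on the compared libraries alone, 4 genes were called at 4 µM and 1 at 2 µM, and with no scaling factor 8 were called with the SUV39H1 hairpins. Calls over all genes fell too with the compared libraries alone, to 1993 from 4012 at 4 µM and to 717 from 1444 at 2 µM. With no scaling factor, 8795 of all genes were higher and 5057 lower with the SUV39H1 hairpins, against 7077 and 6581. Of the calls at 4 µM, 3 depended on single libraries: PSMB10 without DMSO replicate 3 (-0.16, adjusted p = 0.0703), PSMB5 without 4 µM replicate 3 (0.14, adjusted p = 0.0582), and PSME1 without DMSO replicate 3 (0.12, adjusted p = 0.117), without 4 µM replicate 2 (0.12, adjusted p = 0.0968) or without 4 µM replicate 3 (0.11, adjusted p = 0.113). In bulk RNA a change in the share of cells that carry a transcript and a change in RNA per cell cannot be told apart.

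**Figure D2:**
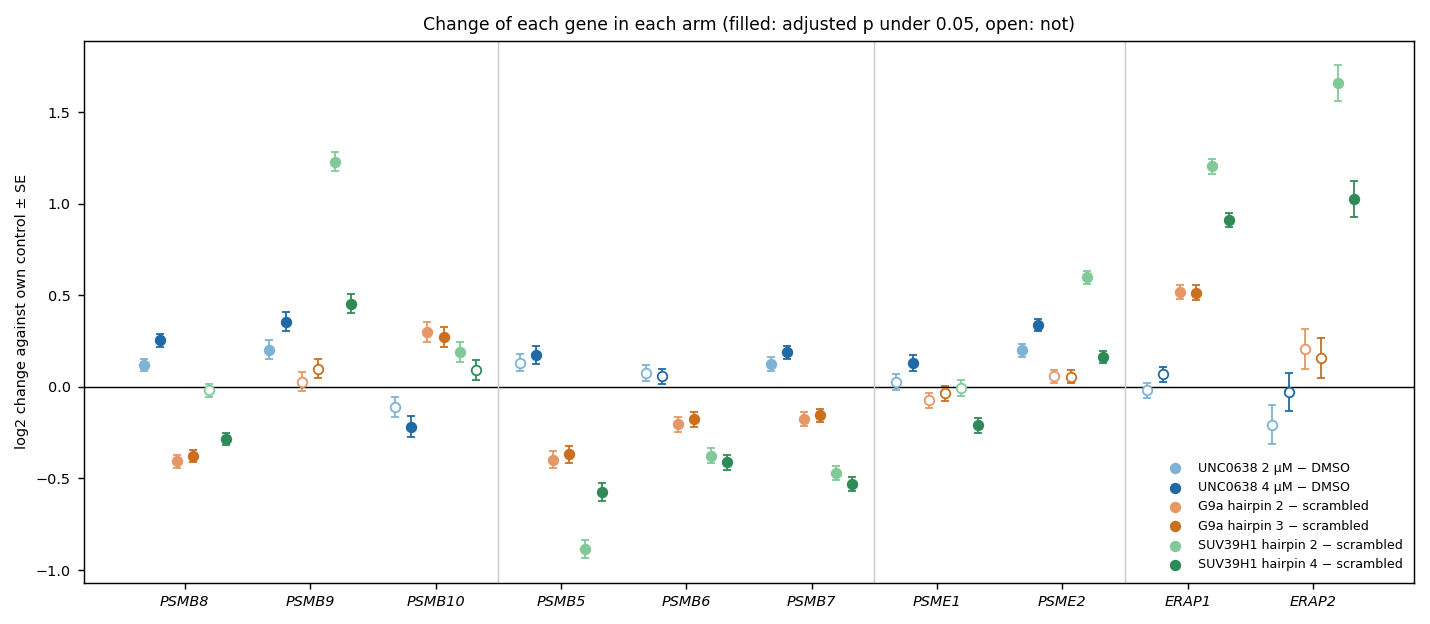
Log2 change of each gene against the control of its own arm, with bars for the standard error of the fit, filled points for an adjusted p under 0.05 and open points otherwise. The blue points of UNC0638 and the orange points of the G9a hairpins lie on opposite sides of 0 for PSMB8, PSMB10, PSMB5 and PSMB7. Of these, PSMB10 and PSMB5 have open points at 2 µM. The same holds of the sides for PSMB6, PSME1 and ERAP2, none of them called in both arms. The green points of the SUV39H1 hairpins span from -0.89 for PSMB5 to 1.66 for ERAP2.

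PSMB8 encodes the immunoproteasome subunit that replaces PSMB5 and cuts after hydrophobic residues. It lies at chr6:32808494-32812480 on the minus strand (hg19) and was, per kilobase of its deposited length, the most abundant of the 10 genes, at a mean of 83.3 CPM per kilobase over all libraries. It stood at 165, 167 and 172 CPM in DMSO, at 179.9, 185 and 183 CPM with 2 µM and at 202, 195 and 199.7 CPM with 4 µM UNC0638. The 3 groups of libraries did not overlap and stood in the order of dose. PSMB8 was higher by 0.25 ± 0.03 in log2 at 4 µM than in DMSO, a 1.19-fold difference (edgeR, adjusted p = 3.43e-06), and by 0.12 ± 0.03 at 2 µM (adjusted p = 0.031). The call at 2 µM was lost when DMSO replicate 1 or 2, or any 1 of the 2 µM libraries, was left out.

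PSMB8 was lower with the G9a hairpins. It held 135, 133 and 134 CPM with G9a hairpin 2 and 133, 136 and 139 CPM with G9a hairpin 3, against 179, 173 and 174 CPM with the scrambled hairpin. All 6 G9a libraries lay below all 3 scrambled libraries, and PSMB8 fell by 0.39 ± 0.03 in log2, or decreased by 23.8% (edgeR, adjusted p = 2.26e-11). With SUV39H1 hairpin 2 it held 181, 189.7 and 183 CPM, and with hairpin 4 it held 157, 156 and 159.6 CPM. The hairpins thus lay on different sides of the scrambled libraries in CPM. With TMM scaling the change was -0.02 ± 0.03 for hairpin 2 (adjusted p = 0.645) and -0.29 ± 0.03 for hairpin 4 (adjusted p = 5.53e-08), while with no scaling factor the value for hairpin 2 turned to 0.07 (adjusted p = 0.0489). For the mean of both hairpins the fall of 0.15 (adjusted p = 5.44e-05) shrank to 0.04 with no scaling factor (adjusted p = 0.179). That alternative, chosen after seeing the data, moved the median change of all genes with the SUV39H1 hairpins to 0.13, against 0.03 with TMM, and the calls of that comparison to 8795 higher and 5057 lower, against 7077 higher and 6581 lower.

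PSMB9 encodes the subunit that replaces PSMB6, and its start lies beside that of TAP1 at chr6:32811913-32827362 on the plus strand (hg19). Its libraries held 33.5, 34.4 and 36.0 CPM in DMSO, 38.0, 41.1 and 40.6 CPM with 2 µM, and 44.0, 43.1 and 45.1 CPM with 4 µM UNC0638. The steps again did not overlap. PSMB9 was higher by 0.35 ± 0.05 in log2 at 4 µM than in DMSO (edgeR, adjusted p = 1.1e-05) and by 0.20 ± 0.05 at 2 µM (adjusted p = 0.0132), a call lost without 2 µM replicate 2 (0.18, adjusted p = 0.0717) or 2 µM replicate 3 (0.19, adjusted p = 0.0561). With the G9a hairpins it held 30.7, 29.8 and 30.2 CPM for hairpin 2 and 29.4, 31.2 and 34.0 CPM for hairpin 3, against 29.99, 28.8 and 29.0 CPM in scrambled cells. These ranges overlapped, and the change of 0.06 ± 0.05 missed the threshold (adjusted p = 0.26).

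The largest step of any immunoproteasome subunit in either arm was that of PSMB9 with SUV39H1 hairpin 2. The 3 libraries held 71.1, 76.0 and 72.1 CPM, those of SUV39H1 hairpin 4 held 41.9, 44.9 and 44.5 CPM, and the scrambled libraries were all at or below 29.99 CPM. No group overlapped another. PSMB9 was 2.34-fold higher with hairpin 2 (log2 1.23 ± 0.05; edgeR, adjusted p = 3.05e-17) and 1.37-fold higher with hairpin 4 (0.45 ± 0.05, adjusted p = 2.85e-08). The library kit does not mark strand, and the locus of PSMB9 overlaps TAP1 by 8770 bases, PSMB8 by 568 bases and the RNA gene TAPSAR1 by 2360 bases, so reads there cannot be told apart by strand. TAP1 changed by 0.48 at 4 µM, by -0.02 with the G9a hairpins, which was not called, and by 0.83 with the SUV39H1 hairpins. The corresponding values for TAPSAR1 were 0.25, -0.09, which was not called, and 0.75.

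PSMB10, the inducible subunit that replaces PSMB7, was lower at 4 µM, where PSMB8 and PSMB9 were higher. It lies at chr16:67968405-67970990 on the minus strand (hg19). The DMSO libraries held 32.0, 35.5 and 37.5 CPM, the 2 µM libraries 32.0, 33.0 and 32.4 CPM and the 4 µM libraries 30.5, 29.1 and 30.3 CPM. All 4 µM libraries lay below all DMSO libraries, and the fall of 0.22 ± 0.06 in log2 was called (edgeR, adjusted p = 0.00579). At 2 µM the groups overlapped and the change of -0.11 ± 0.06 was not called (adjusted p = 0.285). It was called without DMSO replicate 1 (-0.18, adjusted p = 0.033).

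With both knockdowns PSMB10 was higher. G9a hairpin 2 gave 42.0, 40.6 and 38.0 CPM and G9a hairpin 3 gave 41.0, 40.7 and 36.0 CPM, against 33.6, 31.4 and 32.0 CPM with the scrambled hairpin. All 6 G9a libraries lay above the scrambled ones, a rise of 0.29 ± 0.05 in log2 (edgeR, adjusted p = 1.8e-05). SUV39H1 hairpin 2 gave 39.4, 40.5 and 37.7 CPM and SUV39H1 hairpin 4 gave 37.8, 38.0 and 37.0 CPM, also all above scrambled. The rise was 0.14 ± 0.05 for their mean (adjusted p = 0.0121) and was lost without scrambled replicate 2 (0.12, adjusted p = 0.0788). For hairpin 2 alone it was 0.19 ± 0.06 (adjusted p = 0.00389), and for hairpin 4 alone 0.09 ± 0.05 (adjusted p = 0.155), which became 0.22 with no scaling factor (adjusted p = 0.00123). The gene CTC-479C5.12 overlaps PSMB10 by 1516 bases on the same strand, and it changed by -0.22 at 4 µM, 0.17 with the G9a hairpins and 0.00 with the SUV39H1 hairpins, the last not called.

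PSMB5, PSMB6 and PSMB7 encode the catalytic subunits of the constitutive proteasome, whose activities are described as chymotrypsin-like, caspase-like and trypsin-like in that order. With UNC0638, PSMB5 and PSMB7 rose and PSMB6 was not called, and all of them were lower with both knockdowns than with the scrambled hairpin. The scrambled control itself stood above DMSO for PSMB5, PSMB6 and PSMB7, at means of 92.7, 119 and 171 CPM against 76.1, 106 and 146 CPM. PSMB5 lies at chr14:23485752-23504439 on the minus strand (hg19). It held 73.7, 76.4 and 78.2 CPM in DMSO, 81.2, 85.8 and 83.5 CPM with 2 µM and 84.5, 83.4 and 88.2 CPM with 4 µM UNC0638. The 2 doses overlapped each other and both lay above DMSO. PSMB5 was higher by 0.17 ± 0.05 in log2 at 4 µM (edgeR, adjusted p = 0.0105), and at 2 µM the change was 0.13 ± 0.05 (adjusted p = 0.104). With the replicate number as a block PSMB5 was called at 2 µM (0.13, adjusted p = 0.0494).

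PSMB5 had the largest fall of the 10 genes with the SUV39H1 hairpins. It held 50.7, 55.9 and 53.8 CPM with SUV39H1 hairpin 2 and 66.9, 67.7 and 69.9 CPM with SUV39H1 hairpin 4, against 94.2, 92.5 and 91.3 CPM with the scrambled hairpin. It decreased by 45.9% with hairpin 2 (log2 -0.89 ± 0.05; edgeR, adjusted p = 9.89e-15) and decreased by 32.8% with hairpin 4 (-0.57 ± 0.05, adjusted p = 8.83e-11). With G9a hairpin 2 it held 69.7, 74.0 and 70.2 CPM and with G9a hairpin 3 it held 67.4, 72.0 and 77.1 CPM. Every knockdown library lay below every scrambled library, and the fall with the G9a hairpins was 0.38 ± 0.04 in log2 (adjusted p = 1.56e-08). AL132780.1 overlaps PSMB5 by 109 bases on the same strand and fell by 0.44 with the G9a hairpins and by 0.80 with the SUV39H1 hairpins.

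PSMB6 lies at chr17:4699439-4701790 on the plus strand and PSMB7 at chr9:127115745-127177723 on the minus strand (hg19), and neither overlaps another gene of the table. PSMB6 was the steadiest of the catalytic subunits, with a highest group mean 1.22 times its lowest. It held 104, 109 and 107 CPM in DMSO, 110.1, 118 and 109 CPM with 2 µM and 108, 108 and 113 CPM with 4 µM UNC0638. These overlapped, with a change of 0.06 ± 0.04 at 4 µM (edgeR, adjusted p = 0.371; 95% interval -0.02 to 0.14). It held 105, 103 and 106 CPM with G9a hairpin 2, 102, 107 and 109 CPM with G9a hairpin 3, 98.1, 97.5 and 97.3 CPM with SUV39H1 hairpin 2 and 97.7, 96.0 and 99.7 CPM with SUV39H1 hairpin 4, against 119, 114 and 124 CPM with the scrambled hairpin. All 12 knockdown libraries were below the scrambled ones. PSMB6 fell by 0.19 ± 0.04 in log2 with the G9a hairpins (adjusted p = 6.52e-05) and by 0.39 ± 0.04 with the SUV39H1 hairpins (adjusted p = 2.05e-10).

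PSMB7 held 147, 147 and 145 CPM in DMSO, 165, 159 and 154 CPM with 2 µM and 169.8, 161 and 166 CPM with 4 µM UNC0638. Both doses lay above DMSO and overlapped each other. The rise was 0.19 ± 0.04 in log2 at 4 µM (edgeR, adjusted p = 0.000584) and 0.12 ± 0.04 at 2 µM (adjusted p = 0.0437), and the 2 µM call was lost without 2 µM replicate 1 (0.10) or 2 (0.12) or without DMSO replicate 2 (0.13) or 3 (0.12). With SUV39H1 hairpin 2 it held 129, 133 and 132 CPM and with SUV39H1 hairpin 4 it held 128, 128 and 132 CPM, against 173, 169 and 171 CPM with the scrambled hairpin. G9a hairpin 2 gave 153, 153 and 154 CPM and G9a hairpin 3 gave 152, 149 and 162 CPM. None of these ranges met the scrambled one. PSMB7 decreased by 29.3% with the SUV39H1 hairpins (log2 -0.50 ± 0.03, adjusted p = 2.1e-13) and by 10.9% with the G9a hairpins (-0.17 ± 0.03, adjusted p = 0.000108).

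Within each catalytic pair, counts per kilobase of the inducible subunit were set against its own sum with the constitutive one, as a description with no test. PSMB8 made up 66.0% ± 0.342 of its pair in DMSO (SD, n = 3), 65.8% ± 0.323 with 2 µM and 67.2% ± 0.623 with 4 µM UNC0638, which was the narrowest movement of the 3 pairs in that arm. PSMB9 made up 13.1% ± 0.377 of its pair in DMSO, 14.1% ± 0.527 with 2 µM and 15.6% ± 0.177 with 4 µM. PSMB10 made up less at each dose, at 21.7% ± 1.49 in DMSO, 19.1% ± 0.709 with 2 µM and 17.4% ± 0.0981 with 4 µM. The PSMB9 share was thus above DMSO and the PSMB10 share below it at 4 µM, without overlap of libraries.

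With SUV39H1 hairpin 2 all 3 inducible shares were above those of scrambled cells. PSMB8 made up 75.2% ± 0.525 with SUV39H1 hairpin 2 and 67.0% ± 0.312 with SUV39H1 hairpin 4, against 62.5% ± 0.22 with the scrambled hairpin. PSMB9 made up 25.7% ± 0.718 and 17.2% ± 0.612 with SUV39H1 hairpins 2 and 4, against 10.2% ± 0.396 in scrambled cells. PSMB10 made up 25.7% ± 0.738 and 25.2% ± 0.559 with the same hairpins, against 17.99% ± 0.378. The library ranges did not meet those of scrambled cells in any pair, including PSMB8 with hairpin 2, whose own fitted change was -0.02 beside -0.89 for PSMB5. For the G9a hairpins 2 and 3 the mean PSMB8 share was 62.3% ± 1.02 and 62.4% ± 1.07, close to the scrambled 62.5%, the PSMB9 share was 11.8% ± 0.163 and 12.1% ± 0.476, and the PSMB10 share was 23.3% ± 1.00 and 22.8% ± 2.00.

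**Figure D3:**
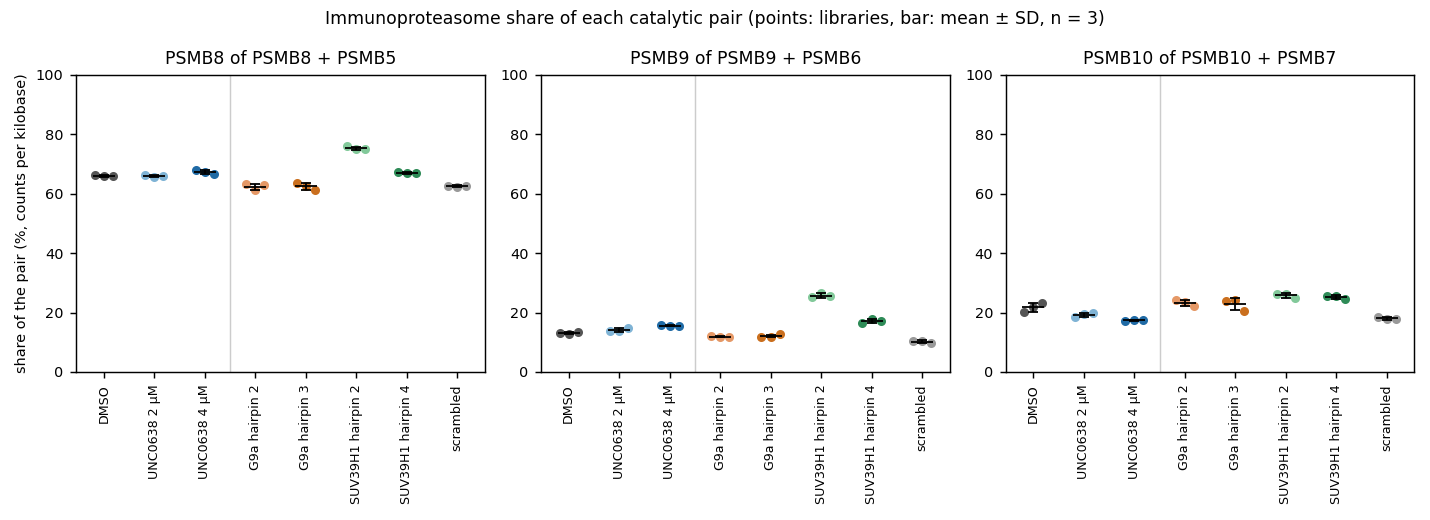
Share of the inducible subunit in each catalytic pair, in percent of summed counts per kilobase (axis from 0 to 100), with points for libraries and bars for the group mean ± SD (n = 3). The PSMB9 share is 25.7% with SUV39H1 hairpin 2, against 10.2% with the scrambled hairpin, and the PSMB10 share is 21.7% in DMSO, 19.1% with 2 µM and 17.4% with 4 µM UNC0638.

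PSME1 and PSME2 lie close together on chromosome 14 and encode the alpha and beta subunits of the PA28 cap. PSME2 was higher at both doses and with both SUV39H1 hairpins, while PSME1 was higher at 4 µM alone. PSME2, at chr14:24612574-24616779 on the minus strand (hg19), held 99.4, 95.9 and 99.5 CPM in DMSO, 115, 113 and 112 CPM with 2 µM and 129, 122 and 120.2 CPM with 4 µM UNC0638. The groups stood in the order of dose and did not overlap. The difference from DMSO was 0.34 ± 0.03 in log2 at 4 µM (edgeR, adjusted p = 3.2e-08) and 0.20 ± 0.03 at 2 µM (adjusted p = 0.000236), the smallest p of the 10 genes at either dose. It held 148, 147 and 152 CPM with SUV39H1 hairpin 2 and 115, 111 and 114 CPM with SUV39H1 hairpin 4, against 94.6, 91.6 and 91.4 CPM with the scrambled hairpin. All lay above scrambled, 1.51-fold for hairpin 2 (0.60 ± 0.03, adjusted p = 2.32e-14) and 1.12-fold for hairpin 4 (0.16 ± 0.03, adjusted p = 0.000207). With G9a hairpin 2 it held 98.5, 99.2 and 95.4 CPM and with G9a hairpin 3 it held 96.8, 96.7 and 96.8 CPM. These libraries too stood above the scrambled ones, but the change of 0.06 ± 0.03 was not called (adjusted p = 0.118) and, of the alternatives run, was called with no scaling factor alone (0.07, adjusted p = 0.0473). PSME2 overlaps RNF31 by 888 bases, and RNF31 was higher by 0.47 with the SUV39H1 hairpins and not called in the other arms.

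PSME1, at chr14:24605367-24608176 on the plus strand (hg19), had smaller changes. It held 139, 143 and 137 CPM in DMSO, 133, 146 and 147 CPM with 2 µM and 146, 155 and 155 CPM with 4 µM UNC0638. The 4 µM libraries lay above DMSO, by 0.13 ± 0.04 in log2 (edgeR, adjusted p = 0.0311), and those of 2 µM overlapped it (0.03 ± 0.04, adjusted p = 0.824). It held 128, 119 and 127 CPM with G9a hairpin 2, all below the scrambled libraries at 129, 129 and 131 CPM. With G9a hairpin 3 it held 124, 131 and 127 CPM, overlapping scrambled. The change with the G9a hairpins was not called (-0.06 ± 0.04; edgeR, adjusted p = 0.23). SUV39H1 hairpin 2 gave 138, 137 and 138 CPM and SUV39H1 hairpin 4 gave 128, 119.6 and 120.5 CPM, again on different sides of scrambled in CPM. The fall of 0.11 ± 0.04 for their mean (adjusted p = 0.0121) turned to 0.0014 with no scaling factor, and that of 0.21 for hairpin 4 (adjusted p = 0.000139) shrank to 0.08 (adjusted p = 0.0918).

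ERAP1 and ERAP2 encode the endoplasmic reticulum aminopeptidases and showed the largest rises of the 10 genes with the SUV39H1 hairpins. ERAP1, at chr5:96096521-96143803 on the minus strand (hg19), held 97.9, 96.3 and 96.4 CPM with SUV39H1 hairpin 2 and 83.1, 79.9 and 80.5 CPM with SUV39H1 hairpin 4, against 38.3, 41.7 and 38.2 CPM with the scrambled hairpin. It was 2.30-fold higher with hairpin 2 (log2 1.20 ± 0.04; edgeR, adjusted p = 2.38e-19) and 1.88-fold higher with hairpin 4 (0.91 ± 0.04, adjusted p = 3.28e-16). It held 55.9, 59.4 and 56.6 CPM with G9a hairpin 2 and 57.8, 57.2 and 55.1 CPM with G9a hairpin 3, between those groups. All 12 knockdown libraries stood above scrambled, and the rise with the G9a hairpins was 0.52 ± 0.04 (adjusted p = 5.46e-12). It was the only gene of the 10 with a rise over 0.5 in log2 in that comparison. In the inhibitor arm ERAP1 held 47.9, 45.6 and 46.4 CPM in DMSO, 47.2, 45.3 and 45.9 CPM with 2 µM and 47.0, 50.1 and 48.8 CPM with 4 µM UNC0638. These overlapped, and the change of 0.07 ± 0.04 at 4 µM was not called (adjusted p = 0.262; 95% interval -0.01 to 0.15). The gene overlaps CAST, on the other strand, by 18779 bases, and CAST was higher by 0.35 with the G9a hairpins and by 0.62 with the SUV39H1 hairpins.

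ERAP2, at chr5:96211643-96255420 on the plus strand (hg19), was the scarcest of the 10 genes, with 134 to 520 counts per library. It held 12.98, 12.997 and 12.95 CPM with SUV39H1 hairpin 2 and 7.92, 8.93 and 8.98 CPM with SUV39H1 hairpin 4, against 3.91, 4.27 and 3.33 CPM with the scrambled hairpin. It was 3.16-fold higher with hairpin 2 (log2 1.66 ± 0.10; edgeR, adjusted p = 2.87e-14) and 2.04-fold higher with hairpin 4 (1.03 ± 0.10, adjusted p = 1.3e-09), without overlap of the groups. With G9a hairpin 2 it held 4.45, 4.79 and 4.28 CPM, narrowly above all scrambled libraries. With G9a hairpin 3 it held 4.10, 4.63 and 4.26 CPM, overlapping scrambled. The change with the G9a hairpins was not called (0.18 ± 0.10; edgeR, adjusted p = 0.12), but was called without scrambled replicate 2 (0.28, adjusted p = 0.0484). ERAP2 held 5.39, 5.05 and 4.71 CPM in DMSO, 4.60, 4.15 and 4.38 CPM with 2 µM and 5.92, 4.93 and 4.01 CPM with 4 µM UNC0638. The 4 µM libraries spread on both sides of DMSO (-0.03 ± 0.10, adjusted p = 0.898; 95% interval -0.23 to 0.18), and those of 2 µM lay below it without a call (-0.21 ± 0.11, adjusted p = 0.315).

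Markers of the myelomonocytic list moved with the SUV39H1 results. With SUV39H1 hairpin 2, 9 of its 10 markers were above scrambled in every library, with SUV39H1 hairpin 4 all 10 were, and with either G9a hairpin 5 were above and 1 below. The share of all genes that stood so was not counted. By the fit, 35.1% of all genes were higher with the SUV39H1 hairpins. With the G9a hairpins 25.0% were higher and 24.9% lower. The summed level of the 10 markers was 5395 to 5443 CPM with SUV39H1 hairpin 2 and 3523 to 3561 CPM with SUV39H1 hairpin 4, against 1843 to 1932 CPM with the scrambled hairpin. Much of that sum is LYZ, the lysozyme gene, which ranged from 265 to 2594 CPM over the 24 libraries, while SPI1, a myeloid transcription factor, ranged from 120.1 to 168 CPM. Without LYZ the sum was 2819 to 2881 CPM with SUV39H1 hairpin 2 and 2111 to 2188 CPM with hairpin 4, against 1377 to 1489.7 CPM with the scrambled hairpin. It was 1377 to 1465 CPM with G9a hairpin 2 and 1448 to 1553 CPM with G9a hairpin 3, overlapping scrambled. With LYZ included, the sum was 2301 to 2444 CPM with the G9a hairpins. In the inhibitor arm the sum with LYZ was 2068 to 2371 CPM in DMSO, 1979.8 to 2090 CPM with 2 µM and 2015 to 2187 CPM with 4 µM. Without LYZ it was 1737 to 2081.5 CPM in DMSO, 1690 to 1825 CPM with 2 µM and 1700 to 1888 CPM with 4 µM. The B cell list ran from 7.15 to 8.38 CPM with the G9a hairpins, 15.3 to 22.9 CPM with the SUV39H1 hairpins and 20.1 to 23.7 CPM with the scrambled hairpin, with MS4A1 at most 0.0239 CPM. In the inhibitor arm that list held 28.5 to 33.4 CPM in DMSO, 21.2 to 23.3 CPM with 2 µM and 19.4 to 21.6 CPM with 4 µM. The part of these shifts in the results above was not tested.

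The hairpins of one target were compared with each other. Between G9a hairpins 2 and 3, 0 of the 10 genes differed, where 0.00993% of all genes did. That count of 0 came from edgeR and was also 0 at an unadjusted p under 0.05 and with DESeq2, and the values ran from -0.07 for PSMB9 to 0.05 for ERAP2. Against scrambled, G9a hairpins 2 and 3 each gave calls for 6 of the 10 genes, where 44.4% and 44.7% of all genes were called. SUV39H1 hairpin 2 gave 8 calls and hairpin 4 gave 9, where 67.1% and 60.9% of all genes were called. Between the SUV39H1 hairpins 7 of the 10 genes differed, where 42.9% of all genes did. PSMB9 was higher with hairpin 2 than with hairpin 4 by 0.78 ± 0.05 in log2 (adjusted p = 1.31e-12), ERAP2 by 0.63 ± 0.08 (adjusted p = 7.27e-07) and PSME2 by 0.44 ± 0.03 (adjusted p = 6.39e-11). ERAP1, PSMB8 and PSME1 were also higher with hairpin 2, by 0.29, 0.27 and 0.20, and PSMB5 was lower by 0.31. SUV39H1 RNA itself was lower by 1.64 with hairpin 2 and by 1.46 with hairpin 4, a difference of -0.18 ± 0.07 (adjusted p = 0.0382).

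Between the inhibitor doses, 2 of the 10 genes differed, where 1.84% of all genes did. PSMB8 and PSME2 were each higher at 4 µM than at 2 µM by 0.14 ± 0.03 in log2 (edgeR, adjusted p = 0.0337 and 0.0294). Both calls were lost when the compared libraries were fitted alone (0.13, adjusted p = 0.164, and 0.14, adjusted p = 0.187), and at most 1 remained when any 1 library was left out.

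Responses in different arms were compared as differences of differences. The change at 4 µM UNC0638 and the change with the G9a hairpins differed for 9 of the 10 genes, where 44.8% of all genes differed. PSMB8 differed most, at 0.65 ± 0.04 in log2 (edgeR, adjusted p = 1.01e-11), followed by PSMB5 at 0.56 ± 0.06 (adjusted p = 6.89e-08) and PSMB10 at -0.50 ± 0.07 (adjusted p = 3.31e-06). ERAP1 stood at -0.45 ± 0.05 (adjusted p = 1.68e-07), and ERAP2 was not called (-0.21 ± 0.14, adjusted p = 0.244). Against the SUV39H1 response the 4 µM response again differed for 9 of the 10 genes, where 57.7% of all genes differed. The widest gaps were -1.37 ± 0.14 for ERAP2, -0.99 ± 0.05 for ERAP1 and 0.90 ± 0.06 for PSMB5. PSME2, higher in both, did not differ in call (-0.04 ± 0.05, adjusted p = 0.454; 95% interval -0.13 to 0.05), though it did with no scaling factor (-0.16, adjusted p = 0.00354).

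The knockdowns share their scrambled control and were therefore set against each other directly. The G9a hairpins differed from the SUV39H1 hairpins for 9 of the 10 genes, where 65.5% of all genes did. ERAP2, PSMB9, ERAP1, PSME2 and PSMB8 were lower with the G9a hairpins, by 1.16, 0.78, 0.54, 0.32 and 0.24 in log2. PSMB5, PSMB7 and PSMB6 were higher with the G9a hairpins, by 0.35, 0.33 and 0.20, and so was PSMB10, by 0.15, a call lost with no scaling factor (0.05, adjusted p = 0.27). PSME1 was not called (0.05, adjusted p = 0.126).

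The controls differed from each other for 7 of the 10 genes, where 31.4% of all genes differed. PSMB5, PSMB7, PSMB6 and PSMB8 were higher with the scrambled hairpin than in DMSO, by 0.31, 0.25, 0.19 and 0.09 in log2. ERAP2, PSMB9 and ERAP1 were lower with the scrambled hairpin, by 0.36, 0.22 and 0.21. The PSMB8 call was lost without scrambled replicate 1 (0.07) or 2 (0.10) and without DMSO replicate 1 (0.09) or 2 (0.09), and the ERAP2 call without scrambled replicate 3 (-0.26) or DMSO replicate 1 (-0.30). Vehicle and hairpin differ between these controls, and their parts cannot be told apart.

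Levels were compared between genes per kilobase of the deposited length, which is summed per gene name and need not be that of the transcripts present. It was 3579 bases for PSME2 and 7938 bases for ERAP1, for example, so the order of genes depends on it. Over all libraries PSMB8 averaged 83.3 CPM per kilobase, PSME1 75.5, PSMB6 75.1, PSMB7 70.3, PSMB5 42.7, PSME2 30.9, PSMB10 19.3, PSMB9 13.3, ERAP1 7.45 and ERAP2 0.819 CPM per kilobase. The genes thus spanned from abundant catalytic subunits to a sparse ERAP2. In spread over the 8 groups, the highest group mean was 3.38 times the lowest for ERAP2, 2.497 times for PSMB9, 2.46 times for ERAP1, 1.73 times for PSMB5 and 1.61 times for PSME2. It was 1.48 times for PSMB8, 1.34 times for PSMB10, 1.32 times for PSMB7, 1.24 times for PSME1 and 1.22 times for PSMB6.

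Ordered by level, SUV39H1 hairpin 2 came first for PSMB9, PSME2, ERAP1 and ERAP2, each time above the next group without overlap of libraries. The next groups were SUV39H1 hairpin 4 for ERAP1 and ERAP2 and 4 µM UNC0638 for PSMB9 and PSME2. For PSMB9 the 4 µM libraries overlapped those of SUV39H1 hairpin 4. The scrambled hairpin came first for PSMB5, PSMB6 and PSMB7, and its libraries overlapped those of the next group for PSMB6 and PSMB7. For PSMB8 and PSME1 4 µM UNC0638 came first, and for PSMB10 it came last, below all other groups without overlap. G9a hairpin 2 was first for PSMB10, in a run of overlapping neighbours that reached down to the scrambled hairpin.

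The rest of the proteasome gave a frame for these values, through lists chosen with earlier results of the same data known. The counts stand beside 10.2% of all genes higher and 9.73% lower at 4 µM, and 3.83% higher and 3.34% lower at 2 µM. At 4 µM UNC0638, 7 of 8 alpha subunits of the barrel were higher and 1 was not called (median 0.22), among them PSMA5 at 0.21, PSMA4 at 0.28 and PSMA2 at 0.21. Of 22 subunits of the 19S regulatory particle, which recognises tagged proteins, 11 were higher and 11 were not called (median 0.13), with PSMC1 at 0.25 and PSMC2 at 0.31. The 4 other beta subunits measured had changes of 0.05 to 0.14 that were not called (median 0.10), and of 9 other activators, inhibitors and assembly factors 3 were higher, among them POMP, which assembles the barrel, at 0.25. At 2 µM PSMC1 (0.13) was the only gene called in these lists.

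With the SUV39H1 hairpins most members of the same lists were lower, where 32.7% of all genes were lower and 35.1% higher. Of the 19S subunits 20 of 22 were lower and 2 were not called (median -0.45, and -0.34 with no scaling factor), among them PSMC3 at -1.04, PSMD6 at -0.75 and PSMC5 at -0.76. All 4 other beta subunits were lower (median -0.43), as were all 9 activators, inhibitors and assembly factors (median -0.43), such as PSME3, which encodes another cap, at -0.74. Of the alpha subunits 7 of 8 were lower and 1 higher (median -0.26), and 4 were lower with no scaling factor. The one that was higher, named after its value was seen, was PSMA8, a form known from testis, at 0.44. With the G9a hairpins, where 24.9% of all genes were lower and 25.0% higher, 12 of 22 19S subunits were lower and 1 higher (median -0.13), 6 of 9 activators, inhibitors and assembly factors were lower (median -0.23), 2 of 4 other beta subunits were lower and 1 of 8 alpha subunits was lower and 1 higher. PSMC1 fell by 0.42 and PSMC5 by 0.39 there. The median of all genes tested was 0.01 with the G9a hairpins and 0.03 with the SUV39H1 hairpins.

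Downstream of the proteasome, genes of peptide transport and loading were higher with the SUV39H1 hairpins for 10 of 13, lower for 3 (median 0.83), where 35.1% of all genes were higher and 32.7% lower. HLA-B and HLA-C, which encode class I heavy chains, were higher by 1.30 and 1.07, and reads of such paralogs may be shared. At 4 µM UNC0638 9 of 13 were higher and 4 were not called (median 0.15), against 10.2% of all genes higher, with TAP1, a subunit of the peptide transporter, at 0.48, HLA-B at 0.47 and HLA-C at 0.41. With the G9a hairpins 6 were higher and 1 lower (median 0.18), against 25.0% and 24.9% of all genes, among them the editing factors TAPBPL at 0.70 and TAPBP at 0.32. Of 7 other peptidases measured, 1 was higher and 1 lower at 4 µM, 2 were higher and 4 lower with the G9a hairpins, and 3 were higher and 3 lower with the SUV39H1 hairpins. All genes tested had 10.2% higher and 9.73% lower at 4 µM, 25.0% and 24.9% with the G9a hairpins and 35.1% and 32.7% with the SUV39H1 hairpins. LAP3, a leucine aminopeptidase, was higher by 0.79 at 4 µM and by 0.50 with the SUV39H1 hairpins and lower by 0.27 with the G9a hairpins. NPEPPS, the puromycin-sensitive aminopeptidase of the cytosol, was higher by 0.61 with the G9a hairpins and 0.70 with the SUV39H1 hairpins and lower by 0.14 at 4 µM.

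Known regulators of these genes formed a last list of 11. At 4 µM 4 were higher and 2 lower, with the G9a hairpins 5 were higher and 3 lower, and with the SUV39H1 hairpins 7 were higher and 2 lower. The shares of all genes higher and lower were 10.2% and 9.73% at 4 µM, 25.0% and 24.9% with the G9a hairpins and 35.1% and 32.7% with the SUV39H1 hairpins. IRF1, a known activator of PSMB9 and TAP1, was higher by 0.57 with the G9a hairpins and by 1.22 with the SUV39H1 hairpins. In the inhibitor arm IRF1 was lower, by 0.20 at 4 µM and by 0.23 at 2 µM. IRF9, a partner of STAT2 in the interferon response, was lower by 0.53 with the G9a hairpins. IRF9 was higher by 0.73 at 4 µM and by 2.05 with the SUV39H1 hairpins, and STAT2 by 0.59 and 1.95 in the same comparisons. With the G9a hairpins, where IRF9 was lower, STAT2 was higher by 0.43.

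**Figure D4:**
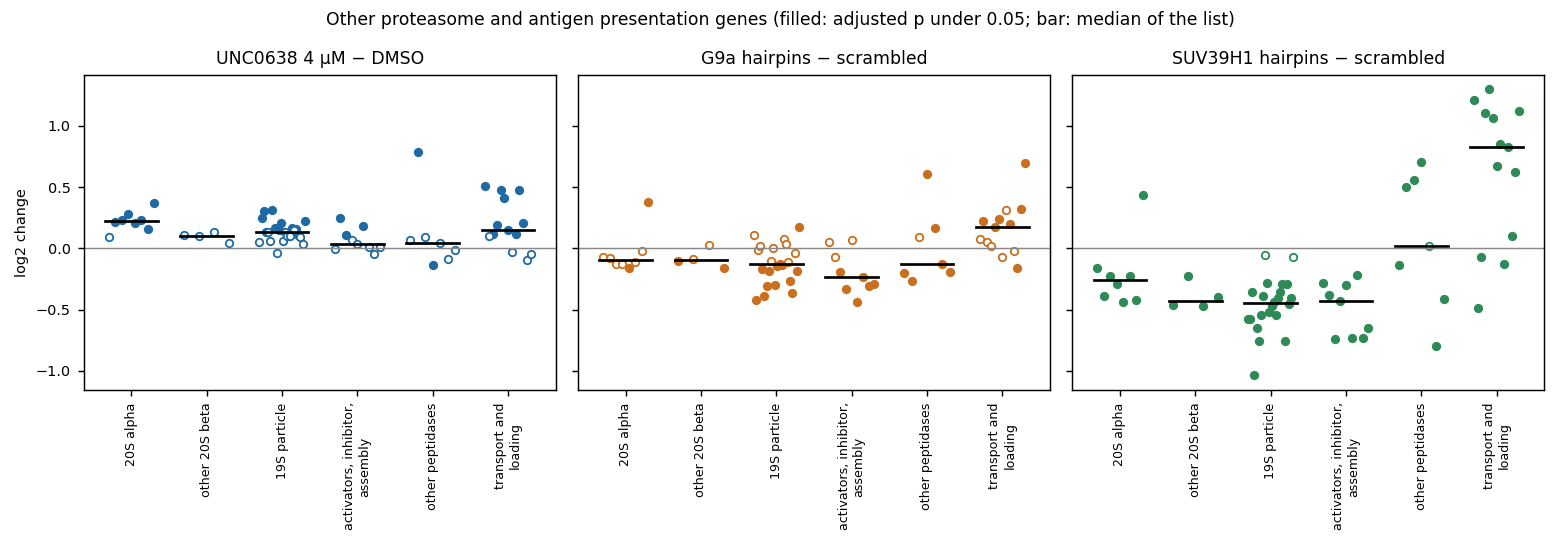
Log2 change of every measured gene of the other proteasome lists and of the antigen presentation lists, with filled points for an adjusted p under 0.05 and bars for the list median. The 19S medians lie at 0.13 with 4 µM UNC0638, -0.13 with the G9a hairpins and -0.45 with the SUV39H1 hairpins, while the transport and loading medians are above 0 in each panel.

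Likeness of pattern was measured as Pearson r of log2 levels over the 8 group means, among 11564 genes and as a description only. PSMB9 was most like TRIM6-TRIM34 (0.996), TRIM34 (0.995) and CCDC69 (0.991), of which the first names a readthrough that shares sequence with the second. PSME2 was most like HERC6 (0.988), BRI3 (0.987) and OAS2 (0.986), ERAP1 like UBA7 (0.996), GPR137B (0.994) and SNX16 (0.993), and ERAP2 like TMEM87B (0.997), HPS3 (0.995) and SETDB2 (0.994). PSMB8 was most like NAMPT (0.987), SPOP (0.987) and NAMPTL (0.983), PSMB10 like FAM46C (0.974), CNPY3 (0.974) and CLASRP (0.970), and PSME1 like LAMTOR5 (0.975), ACTR6 (0.967) and HNRNPH2 (0.960). The constitutive subunits were most like other genes again, PSMB5 like BYSL (0.996), GTPBP4 (0.995) and SRPRB (0.994), PSMB6 like SLAMF8 (0.993), POLR2F (0.991) and SNRPEP4 (0.989), and PSMB7 like SNRPD1 (0.995), HSPE1 (0.992) and UBE2L3 (0.990). Among the members themselves PSMB6 and PSMB7 had r = 0.971, PSMB9 and PSME2 0.961, PSMB8 and PSMB10 -0.857, and PSMB5 and ERAP1 -0.967, over the same 8 means.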

How the data were processed

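RNA of U937 cells was prepared with a TruSeq RNA v2 kit, per the labels' protocols, which does not mark strand. The submitters' processing notes name STAR, featureCounts and the build hg19, with their annotation, versions and settings not given in the sources used here. Values deposited by the authors are raw whole-number counts per gene and library, beside a coordinate and a summed length per gene name. Groups and replicate numbers come from the labels. Library sizes were the sums over all names.

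Genes were kept with filterByExpr of edgeR 4.0.16 in R 4.3.3 (minimum count 10, minimum total 15), scaled with TMM (factors 0.968 to 1.07) and fitted with glmQLFit and glmQLFTest, 1 mean per group over all 24 libraries, with Benjamini-Hochberg adjustment over 20147 genes. The common dispersion was 0.00215. Printed CPM use library totals without TMM, so CPM and fitted changes can differ slightly. Alternatives were RLE scaling, no filter, DESeq2 1.42.0, a replicate block, the compared libraries alone, and leaving out each library. No scaling factor was added after seeing the data. The labels tie no replicate number to a shared batch. By the set limit of r over 0.1, same-numbered libraries deviated together in every pair between 2 µM and DMSO (r = 0.570 to 0.857). They did so too between SUV39H1 hairpin 4 and scrambled (0.341 to 0.747). In the other comparisons with a control at least 1 of 3 same-numbered pairs was below that limit. Differently numbered libraries ran from r = -0.827 to 0.748 between 2 µM and DMSO. Between SUV39H1 hairpin 4 and scrambled they ran from -0.655 to 0.317. The main fit was unpaired, and a replicate block was run as an alternative.

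The 10 genes, the lists, tests and alternatives were chosen with earlier results of these data known. Named list genes are at most the 3 called members with the smallest p in each of the 4 main comparisons, and likeness names the 3 genes of highest r among those averaging at least 2 CPM. Motifs were searched in RefSeq promoter windows of GRCh38.p14, whose coordinates are not those of hg19. The repeat counts were not used here. Some members of these lists that the rule names are not reported here.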

Additional observations from a re-analysis of the deposited data

Results flagged for a closer look

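For 7 of the 10 genes the response to SUV39H1 knockdown differed between the hairpins, by a test of the difference itself (hairpin 2 minus hairpin 4, log2, edgeR). The differences were 0.78 for PSMB9, 0.63 for ERAP2, 0.44 for PSME2, 0.29 for ERAP1, 0.27 for PSMB8, 0.20 for PSME1 and -0.31 for PSMB5. Of all genes tested, 42.9% were called in the same comparison. In these 7 genes all libraries of hairpin 2 lay on one side of all libraries of hairpin 4. The 7 were picked by a call on the same libraries, so that adds no support, and the share of all genes without overlap was not counted. Groups of 3 libraries are too small for a search for single libraries that stand apart.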

How the results depend on the processing

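Without leaving out libraries, 810 values of single genes kept their direction and side of the threshold under the alternatives, 20 lost their call, 5 gained one and 5 changed sign. With libraries left out one at a time these numbers were 1095, 34, 7 and 4. Fitted on the compared libraries alone, 4 genes were called at 4 µM against DMSO (7 before), 1 at 2 µM (4 before) and 0 between the doses (2 before). With no low-count filter, 2 were called at 2 µM and 0 between the doses. Leaving out single libraries gave 5 to 7 calls at 4 µM, 1 to 4 at 2 µM and 0 to 1 between the doses. The cause was not tested. Of all genes, the compared libraries alone gave 1993 calls at 4 µM, against 4012, 717 at 2 µM, against 1444, and 236 between the doses, against 371. Between the G9a hairpins 11 genes were called with no filter, against 2.

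With no scaling factor, signs turned for PSME1 with the SUV39H1 hairpins (0.0014) and with hairpin 2 (0.0838), PSMB8 with SUV39H1 hairpin 2 (0.0722), PSMB6 between the SUV39H1 hairpins (-0.0019) and PSME1 between G9a and SUV39H1 hairpins (-0.0424). That alternative was chosen after seeing the data and drops the TMM factors, which were higher in the SUV39H1 libraries. Leaving out 1 library gave -0.17 to 0.11 for ERAP2 at 4 µM, -0.0336 to 0.00077 for ERAP1 at 2 µM, and -0.0460 to 0.0203 for PSMB6 between the doses. Over all groups, 49 of 84 pairs of same-numbered libraries had a correlation over 0.1, and so had 64 of 168 differently numbered pairs. The median was 0.21 for same-numbered and -0.09 for differently numbered pairs. A replicate block gave 4642 calls over all genes at 4 µM, against 4012, and 0.13 for PSMB5 at 2 µM (edgeR, adjusted p = 0.0494), and it changed no other call of the 10 genes.

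Without division by length, PSMB8 made up 68.8% of its pair in DMSO, 68.6% with 2 µM, 70.0% with 4 µM, 65.3% and 65.4% with G9a hairpins 2 and 3, 77.5% and 69.8% with SUV39H1 hairpins 2 and 4, and 65.4% in scrambled cells. PSMB9 made up 24.6%, 26.3%, 28.6%, 22.4%, 22.9%, 42.8%, 30.9% and 19.8% in the same order. PSMB10 made up 19.3%, 16.9%, 15.3%, 20.8%, 20.3%, 22.97%, 22.5% and 15.9%. At 134 to 520 counts per library ERAP2 was the least precise of the 10 genes.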
